A study of Mus musculus with 10 samples.

Results

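Among genes whose signal was high in mouse embryonic stem (ES) cells overexpressing PRDM14, 93 gene names were singled out. In a line that also expressed DNMT3B1, these names had a signal close to or below that of the parental cells. They were chosen from the authors' deposited value table of log2 microarray signals, with 1 probe per name, the one with the highest mean. A name was taken where the PRDM14OE mean was at least 1.5 log2 units above the J1 mean, the PRDM14OE_DNMT3B mean was less than 0.5 above J1, and the probe was well above background on both PRDM14OE arrays. Names that start with chr or lincRNA were left out. The choice drew on the remaining 31551 gene names, of which 1142 met the PRDM14OE and background conditions. The values in PRDM14OE, PRDM14OE_DNMT3B and J1 therefore fixed the membership, and differences between these 3 groups are given as descriptions without a test.

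PRDM14 is a DNA-binding protein of the PR domain family that is expressed in the inner cell mass, in ES cells and in primordial germ cells, and it is known to lower Dnmt3b expression in ES cells. DNMT3A and DNMT3B place new methyl groups on CpG dinucleotides, DNMT3B1 is a catalytically active isoform of DNMT3B, and DNMT1 copies methylation to the new strand after replication. Promoters of germline genes, of X-linked multicopy testis genes and of imprinted genes are well-known sites of transcriptional silencing by this mark.

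The series holds 10 one-colour arrays of 6 groups, each of them 1 cell line, cultured feeder-free with serum and leukaemia inhibitory factor (LIF). PRDM14OE is line JP-23, wild-type cells that stably express Prdm14, with 2 arrays. PRDM14OE_DNMT3B is line JP-23+3b-3, in which both Prdm14 and Dnmt3b1 are stably expressed, with 2 arrays. Dnmt3b_KO is line 8bb (Dnmt3b-/-, 2 arrays), Dnmt1_KO is line 36 (Dnmt1-/-, 1 array), TKO is line 19-1 (Dnmt1-/-Dnmt3a-/-Dnmt3b-/-, 1 array), and J1 is the wild-type line J1 (2 arrays). The study asked how DNA demethylation through PRDM14 overexpression changes expression. No promoter driving either transgene is named in the labels, and nothing says that replicate arrays came from different cultures. The p-values therefore cover the spread between arrays alone, which may be technical.

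Each level below is a log2 signal from which the array's own 75th percentile was subtracted, so a level of 0 is that percentile. The share of spots well above background was 50.03% to 56.03% per array, and no spot was saturated. Of 10 ES cell markers, 10 were well above background on all 10 arrays. Dnmt1 averaged -2.68 in Dnmt1_KO and -3.15 in TKO, against 1.46 in J1, and Dnmt3b averaged 1.66 in Dnmt3b_KO and 1.99 in TKO, against 7.59 in J1. The Prdm14 probe went against the label, at -4.17 in PRDM14OE and -6.39, not well above background, in PRDM14OE_DNMT3B, against 0.01 in J1. The Dnmt3b probe was at 4.13 in PRDM14OE_DNMT3B and 5.02 in PRDM14OE. The sources used here do not say whether these probes can detect the transgenes, so PRDM14OE and PRDM14OE_DNMT3B mean the libraries labelled so, and every direction drawn from them rests on the labels. The PRDM14OE arrays lay alone on slides 3 and 4 and the other 8 arrays on slides 1 and 2. For any difference of PRDM14OE the slide therefore cannot be told apart from the group. Each group is also 1 cell line, so what was changed in a line cannot be told apart from other differences between lines.

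Promoter windows of 6 members are printed because they show CpG-rich and CpG-poor promoters, from 21 CpG to 3, in members that were also high without DNMT1 and in members that were not. Each runs from 250 bases before to 50 bases after a start site in the RefSeq table (GRCm38.p6), 5′ to 3′ on the strand of the gene, with every CpG in capitals. Fkbp6 (chr5:135349995-135350294, minus strand, 1 of 2 listed starts) held 21 CpG and Rab3il1 (chr19:10017944-10018243, plus strand, 1 of 5 listed starts) held 16. Tktl2 (chr8:66511490-66511789, plus strand) held 14. Ctag2l2 (chrX:74740677-74740976, plus strand) and Igfbp1 (chr11:7197537-7197836, plus strand) held 8 each. Mbl2 (chr19:30232678-30232977, plus strand) held 3.
Fkbp6: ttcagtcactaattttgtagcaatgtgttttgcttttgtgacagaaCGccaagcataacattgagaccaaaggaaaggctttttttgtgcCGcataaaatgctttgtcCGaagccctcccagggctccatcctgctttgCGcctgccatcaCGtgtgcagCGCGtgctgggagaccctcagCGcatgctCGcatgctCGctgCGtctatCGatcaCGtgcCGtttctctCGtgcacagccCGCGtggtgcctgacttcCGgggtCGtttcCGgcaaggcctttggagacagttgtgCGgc
Rab3il1: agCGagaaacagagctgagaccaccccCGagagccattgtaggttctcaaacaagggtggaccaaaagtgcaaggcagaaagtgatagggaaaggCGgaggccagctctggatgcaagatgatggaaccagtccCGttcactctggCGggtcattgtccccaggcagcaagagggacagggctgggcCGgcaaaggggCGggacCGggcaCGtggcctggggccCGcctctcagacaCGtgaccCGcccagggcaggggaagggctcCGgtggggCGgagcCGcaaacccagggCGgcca
Tktl2: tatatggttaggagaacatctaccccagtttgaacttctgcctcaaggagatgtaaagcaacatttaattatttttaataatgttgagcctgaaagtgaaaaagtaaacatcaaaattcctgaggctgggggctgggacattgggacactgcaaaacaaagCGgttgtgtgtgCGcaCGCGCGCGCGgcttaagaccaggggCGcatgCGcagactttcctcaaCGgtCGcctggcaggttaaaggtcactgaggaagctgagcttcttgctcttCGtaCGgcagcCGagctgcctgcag
Ctag2l2: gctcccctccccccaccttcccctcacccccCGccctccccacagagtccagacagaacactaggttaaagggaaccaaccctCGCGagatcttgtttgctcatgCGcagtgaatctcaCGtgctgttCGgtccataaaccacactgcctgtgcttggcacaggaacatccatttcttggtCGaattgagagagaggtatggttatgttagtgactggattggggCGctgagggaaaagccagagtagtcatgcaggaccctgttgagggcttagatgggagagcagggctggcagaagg
Igfbp1: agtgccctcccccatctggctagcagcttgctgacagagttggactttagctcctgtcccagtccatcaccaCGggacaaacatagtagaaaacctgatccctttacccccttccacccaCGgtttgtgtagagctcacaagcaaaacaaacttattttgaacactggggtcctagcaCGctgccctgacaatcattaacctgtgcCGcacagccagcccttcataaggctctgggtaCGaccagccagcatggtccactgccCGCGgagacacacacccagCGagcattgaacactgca
Mbl2: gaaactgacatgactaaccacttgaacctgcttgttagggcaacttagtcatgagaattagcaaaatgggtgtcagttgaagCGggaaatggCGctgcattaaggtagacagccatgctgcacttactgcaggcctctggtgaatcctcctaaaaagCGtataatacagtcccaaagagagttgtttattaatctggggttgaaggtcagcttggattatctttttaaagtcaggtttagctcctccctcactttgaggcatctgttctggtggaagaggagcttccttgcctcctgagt

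In the value table, PRDM14OE lay 1.5 to 4.71 log2 units above J1 over the 93 members, with a median of 1.88. Of them, 7 lay more than 3 units above J1, 26 lay 2 to 3 units above and 60 less than 2. PRDM14OE_DNMT3B minus J1 ran from -1.97 to 0.5, with a median of 0.11, and 36 members were below J1. The difference PRDM14OE_DNMT3B minus PRDM14OE ran from -4.25 to -1.07, with a median of -1.8. In 92 of the 93 members the lowest PRDM14OE array was above the highest J1 array, and in 92 it was above the highest PRDM14OE_DNMT3B array, which the choice of members largely fixes. The PRDM14OE arrays differed by a median of 0.16 log2 units, but by 2.38 for Gm11559, a predicted gene, and 2.96 for ENSMUST00000098678, described as RIKEN gene D930028M14. These 2 members were singled out after their values were seen.

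**Figure D1:**
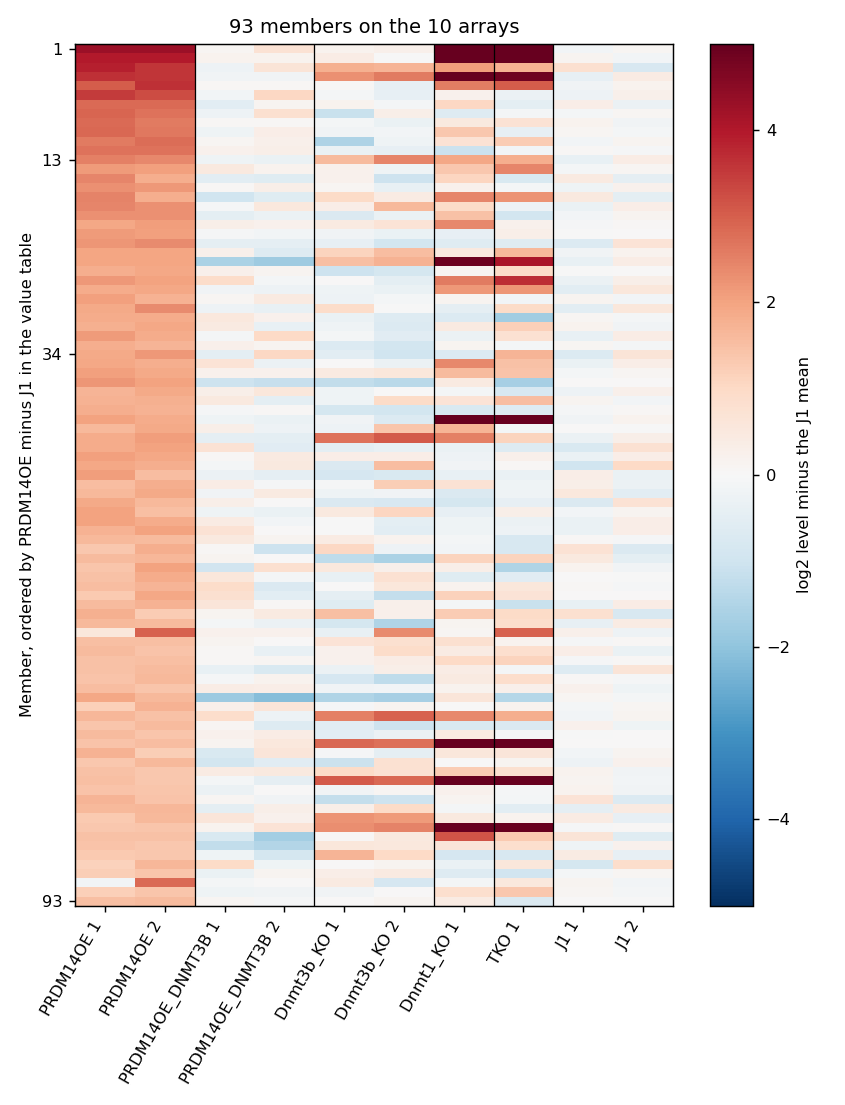
Heat map of the 93 members (rows, ordered by PRDM14OE minus J1 in the value table) on the 10 arrays (columns), as log2 level minus the J1 mean of the row, with colours that end at 5 log2 units in each direction. By the choice of members, group means are above J1 in PRDM14OE and near or below it in PRDM14OE_DNMT3B, and in 92 of the 93 rows both PRDM14OE arrays lie above both J1 arrays. The Dnmt3b_KO, Dnmt1_KO and TKO columns, which the thresholds did not use, range from deep red to blue.

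Most members were dim probes. The mean level in PRDM14OE ran from -4.3 to 5.16 with a median of -2.58, and the median J1 level was -4.46. All 93 were well above background on both PRDM14OE arrays, which the rule required. In PRDM14OE_DNMT3B 50 members were well above background on no array, in Dnmt3b_KO 44, in Dnmt1_KO 37, in TKO 41 and in J1 47. Where a group is below background on all its arrays, its fold change is written "at least", from a mean in which each dim value is replaced by the lowest well-above-background signal of its array where that is higher. With normexp background correction, which adds an offset of 50 intensity units, 15 names met the rule, 11 of them among the 93, so the size of the set depends on the background correction. As RNA came from bulk cultures, fewer cells with a transcript and less of it per cell cannot be told apart.

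The members just inside the PRDM14OE threshold were Mapk4 and ENSMUST00000098678 at 1.5 above J1 and Gm8909 at 1.502, and just outside lay Agrp at 1.496, the unnamed probe A_55_P1972143 at 1.484 and S100a14 at 1.48. At the second threshold, Zbtb10 (0.498), C130045F17Rik (0.492) and the unnamed probe A_55_P2117507 (0.49) lay just inside, and Plcd1 (0.512), A_55_P2166799 (0.52) and Efcab2 (0.52) just outside. Membership at these edges turns on a few hundredths of a log2 unit. Of 16 members with another probe under the same name, 8 had one that was well above background on both PRDM14OE arrays. By their levels, not the value table, all 8 of these probes were higher in PRDM14OE than in J1. On the level scale 1 of them, of Atp1a4, also met both thresholds (2.16 and 0.44). The thresholds were set on the value table, so this does not show that the probe meets the membership rule. Of the 8 probes, those of Peg12 and 1700029I01Rik stayed 0.65 and 0.88 above J1 in PRDM14OE_DNMT3B, and the others were less than 0.5 above it. The second probe of Fthl17f (Gm5635 in the files), well above background on 1 PRDM14OE array, was 1.43 above J1 in PRDM14OE and 1.21 in PRDM14OE_DNMT3B.

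The member with the largest difference was Fkbp6, an immunophilin-family co-chaperone needed in male germ cells for meiosis and piRNA-based transposon control. It is present under 2 names, Fkbp6 (chromosome 5, 135815357 to 135815416 on mm9, the build of the probe positions in the files) and ENSMUST00000111181 (135813245 to 135813304), which the files describe as the same protein, so it counts as 2 members. Fkbp6 levels were 0.27 and 0.27 in PRDM14OE, -3.51 and -3.52 in PRDM14OE_DNMT3B, -3.29 and -3.70 in Dnmt3b_KO, 1.54 in Dnmt1_KO and 1.95 in TKO, against -3.54 and -3.83 in J1. PRDM14OE, Dnmt1_KO and TKO were high, and the other groups lay together more than 3 units lower without reaching them. PRDM14OE was 15.5-fold above J1, and PRDM14OE_DNMT3B was 13.8-fold below PRDM14OE. The second name gave 1.24 and 1.24 in PRDM14OE, -2.97 and -2.32 in PRDM14OE_DNMT3B, -2.89 and -2.79 in Dnmt3b_KO, 2.23 in Dnmt1_KO and 2.87 in TKO, against -3.17 and -2.94 in J1. By this probe too, PRDM14OE, Dnmt1_KO and TKO lay above the other groups.

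Lcp1, which encodes the actin-bundling protein L-plastin of leukocytes (chromosome 14, 75630210 to 75630269), had levels of -0.82 and -1.15 in PRDM14OE, -4.97 and -4.07 in PRDM14OE_DNMT3B, -2.96 and -3.04 in Dnmt3b_KO, -2.64 in Dnmt1_KO and -2.99 in TKO, against -3.90 and -5.54 in J1. The J1 arrays were far apart, and the knockout lines lay above both of them. Mbl2, a serum mannose-binding lectin that activates complement (chromosome 19, 30314044 to 30314103), had -2.53 and -2.63 in PRDM14OE, -6.38 and -6.37 in PRDM14OE_DNMT3B, -3.93 and -3.61 in Dnmt3b_KO, -0.78 in Dnmt1_KO and -1.34 in TKO, against -6.61 and -5.79 in J1. It was below background in PRDM14OE_DNMT3B and J1, so PRDM14OE was at least 3.1-fold above J1 and PRDM14OE_DNMT3B at least 4.67-fold below PRDM14OE. Ptprcap, a protein associated with the leukocyte phosphatase CD45 (chromosome 19, 4156556 to 4156615), had 1.21 and 0.97 in PRDM14OE, -1.57 and -1.55 in PRDM14OE_DNMT3B, -1.72 and -1.96 in Dnmt3b_KO, -1.13 in Dnmt1_KO and -0.89 in TKO, against -1.44 and -1.79 in J1. The PRDM14OE arrays were the highest for this gene by a wide margin. None of the 12 blood and immune markers was a member, and 8 were above background in PRDM14OE and 6 in J1. Their summed log2 level ran from 4.33 to 4.44 in PRDM14OE, against 4.64 to 4.86 in J1, and Ptprc, which encodes CD45, averaged -4.34 in PRDM14OE and -3.42 in J1. Their part in these levels was not tested.

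Igfbp1, a secreted binding protein of insulin-like growth factors (chromosome 11, 7102442 to 7102501), had -2.47 and -2.67 in PRDM14OE, -6.09 and -4.91 in PRDM14OE_DNMT3B, -6.06 and -6.35 in Dnmt3b_KO, -5.73 in Dnmt1_KO and -6.26 in TKO, against -6.19 and -5.70 in J1. It was below background on all arrays other than those of PRDM14OE, which was at least 3.12-fold above J1. Rab3il1, an activator of Rab GTPases (chromosome 19, 10109886 to 10109945), was a bright member with 3.53 and 3.52 in PRDM14OE, 1.05 and 1.12 in PRDM14OE_DNMT3B, 0.49 and 0.42 in Dnmt3b_KO, -0.27 in Dnmt1_KO and 0.67 in TKO, against 0.86 and 0.78 in J1. Here every other line lay near or below J1. Gm10621 (chromosome 9), 5430402O13Rik (chromosome 6) and Smim9 (4930428E23Rik in the files, chromosome X), whose roles are not described here, were also highest in PRDM14OE, with means 7.1-fold, at least 4.01-fold and at least 1.86-fold above J1. Ceacam10, a member of the carcinoembryonic antigen family of cell adhesion molecules (chromosome 7), was at least 4.88-fold above J1 in PRDM14OE, and it was at least 1.91-fold higher in the mean of Dnmt1_KO and TKO than in Dnmt3b_KO (limma adjusted p = 0.0255). Without the TKO array this difference missed the threshold of 0.05 (limma adjusted p = 0.0831). Zfp264, a zinc finger gene of the imprinted list (chromosome 7, 6943716 to 6943775), was at least 2.18-fold above J1 in PRDM14OE, and was also above J1 in Dnmt1_KO (at least 1.26-fold, limma adjusted p = 0.00463) and in TKO (at least 1.77-fold, limma adjusted p = 0.00233).

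**Figure D2:**
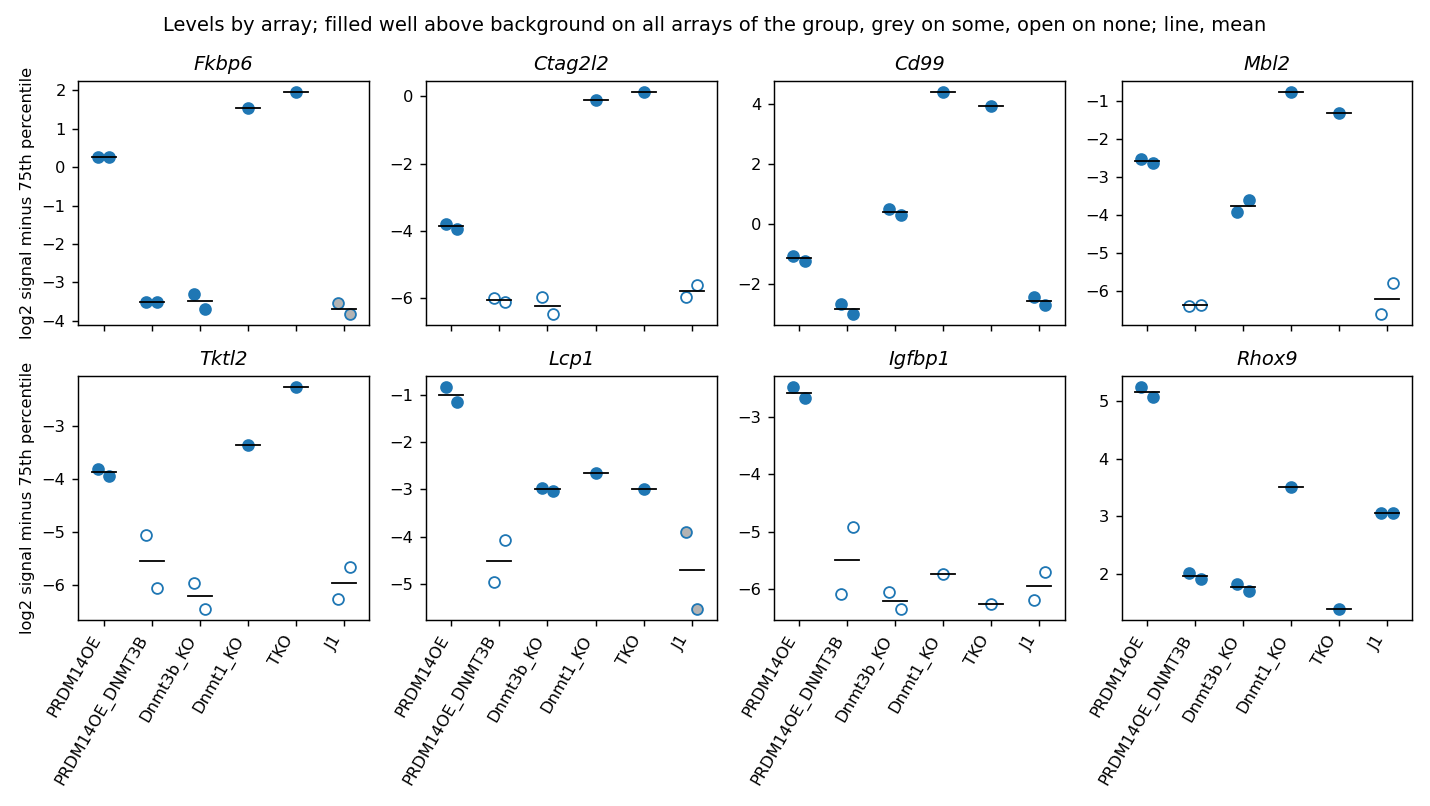
Log2 levels (relative to the 75th percentile of each array) of 8 members by group, 1 point per array, with a line at the group mean. Points are filled where the probe was well above background on all arrays of the group, grey where on some and open where on none. Fkbp6, Ctag2l2, Cd99, Mbl2 and Tktl2 were higher in Dnmt1_KO and TKO than in PRDM14OE, Lcp1 and Igfbp1 were highest in PRDM14OE, and Rhox9 was lower in TKO, Dnmt3b_KO and PRDM14OE_DNMT3B than in J1.

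The lines without DNMT1 were set against the line without DNMT3B, since the thresholds and background condition did not use these 4 arrays. They entered only the mean over all 10 arrays that picked the probe of a name. A gene was called where limma's Benjamini-Hochberg adjusted p over all 23624 gene names tested was under 0.05. Names that start with chr or lincRNA, which could not be members, were not taken out of the names tested or of their shares. Of the 93 members, 31 (33.3%) were called higher in the Dnmt1-deficient lines, the mean of Dnmt1_KO and TKO, than in Dnmt3b_KO, where 10.9% of all names tested were called higher. The members called lower were 6 (6.45%), against 11.5% of all names. The rule asked for signal above background in PRDM14OE alone, and 44 members were well above it on no Dnmt3b_KO array. A fall from there cannot be measured, so the choice of members may itself lower this share. The median log2 difference of the members was 0.23 and that of all names -0.02. The share called higher was close to that among the other PRDM14OE-raised genes. Of 1047 tested names that were at least 1.5 above J1 in PRDM14OE and still at least 0.5 above J1 in PRDM14OE_DNMT3B, 348 (33.2%) were called higher and 165 (15.8%) lower. Of the 31 members, 28 had both Dnmt1-deficient arrays above both Dnmt3b_KO arrays, and within slide 1 all 31 kept their direction, with a median of 1.67. The calls were made on these same arrays, which largely fixes both counts. On slide 1 the Dnmt1_KO and TKO arrays belong to a scan pass of their own. Among the 29 members well above background on all 10 arrays, 15 were called higher and 2 lower, where 9.76% of the 18201 names in that setting were called higher and 16.4% lower. The count of 6 was 2 with normexp background correction, where 11.4% of all names were called lower. It also fell without Dnmt3b_KO replicate 1, as did the share of all names called lower. Each Dnmt1-deficient line has 1 array and was assumed to vary like the other groups.

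The largest differences were those of Ctag2l2 and the 2 names of Fkbp6. Ctag2l2 (Gm6890 in the files, X chromosome, 71987468 to 71987527), a relative of the human cancer/testis antigens, had levels of -0.10 in Dnmt1_KO and 0.12 in TKO, against -5.97 and -6.47 in Dnmt3b_KO. It was below background in Dnmt3b_KO, so the difference was at least 29.3-fold (limma adjusted p = 8.41e-05). PRDM14OE, at -3.78 and -3.94, lay between. Fkbp6 differed by 5.24 ± 0.16 (SE, log2, limma adjusted p = 7.16e-05) and its second name by 5.39 ± 0.22 (limma adjusted p = 0.00015). Tktl2, a transketolase-like gene (chromosome 8, 69037533 to 69037592), had -3.36 in Dnmt1_KO and -2.27 in TKO, against -5.96 and -6.45 in Dnmt3b_KO, at least 4.12-fold higher (limma adjusted p = 0.00315). Its levels in PRDM14OE were -3.81 and -3.94. Fthl17d (Gm14458, chromosome X, 8539269 to 8539328) and Fthl17f (Gm5635, chromosome X, 8640860 to 8640919) belong to a multicopy family of ferritin heavy chain-like genes, so their probes may also take up signal of other copies. Fthl17f had 5.14 in Dnmt1_KO and 4.44 in TKO, against 2.19 and 2.07 in Dnmt3b_KO, a difference of 2.66 ± 0.14 (SE, log2, limma adjusted p = 0.000301), and Fthl17d differed by 2.89 ± 0.17. For both genes Dnmt3b_KO in turn lay above PRDM14OE, with 0.76 and 0.88 in PRDM14OE for Fthl17f.

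Cyct, the testis form of cytochrome c, Atp1a4, the sperm form of the sodium pump catalytic subunit, and Dmrtc1b, of the DMRT family, fall outside the rule for named genes and were picked after their values were seen. Cyct had 0.73 in Dnmt1_KO and 0.77 in TKO, against -1.63 and -1.74 in Dnmt3b_KO (2.43 ± 0.33, SE, log2, limma adjusted p = 0.00582), and its PRDM14OE levels of 0.43 and 0.51 came close to those of the Dnmt1-deficient lines. Atp1a4 differed by 1.89 and Dmrtc1b was at least 3.33-fold higher. Among genes without a germ cell name, Cd99, a cell surface glycoprotein (no position in the files), had 4.39 in Dnmt1_KO and 3.94 in TKO, against 0.50 and 0.32 in Dnmt3b_KO, a difference of 3.76 ± 0.16 (SE, log2, limma adjusted p = 0.000191). In PRDM14OE it was at -1.06 and -1.22, far below the knockout lines. Efhc2, an EF-hand protein (chromosome X, 16709389 to 16709448), differed by 2.87, Mbl2 by 2.71, and Zfp264, below background in Dnmt3b_KO, was at least 2.34-fold higher. Ppp1r16b, a regulatory subunit of protein phosphatase 1 (chromosome 2), was at least 5.32-fold higher, with -2.15 in Dnmt1_KO and -2.16 in TKO against -4.54 and -4.86 in Dnmt3b_KO.

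The 6 members called lower in the Dnmt1-deficient lines had smaller differences. Slco1a4, an organic anion transporter (chromosome 6), had -6.32 in Dnmt1_KO and -6.30 in TKO, against -3.78 and -4.47 in Dnmt3b_KO, and was at least 1.15-fold lower (limma adjusted p = 0.0127). ENSMUST00000099164, described as leucine rich repeat containing 31 (chromosome 3), fell by 1.85 on the log2 scale, Mapk4, an atypical MAP kinase, by 1.2, Opn3, an opsin found outside the eye as well, fell by 1.06, and Slc30a2, a zinc transporter, fell by 0.75. ENSMUST00000022427, a testis clone of the 4933413J09Rik locus, fell by 0.74 but was not above background in either group. Without the TKO array the values were -0.37 for Opn3, -0.38 for Slc30a2 and -0.21 for ENSMUST00000022427, and none of these was called. Members with a PRDM14OE difference of 2 or more were called higher in 16 of 33 (48.5%), and those under 2 in 15 of 60 (25%), against 10.9% of all names. This split uses a value that chose the members, and Fkbp6 counts as 2 of the 33. The gap between the 2 shares was not tested.

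**Figure D3:**
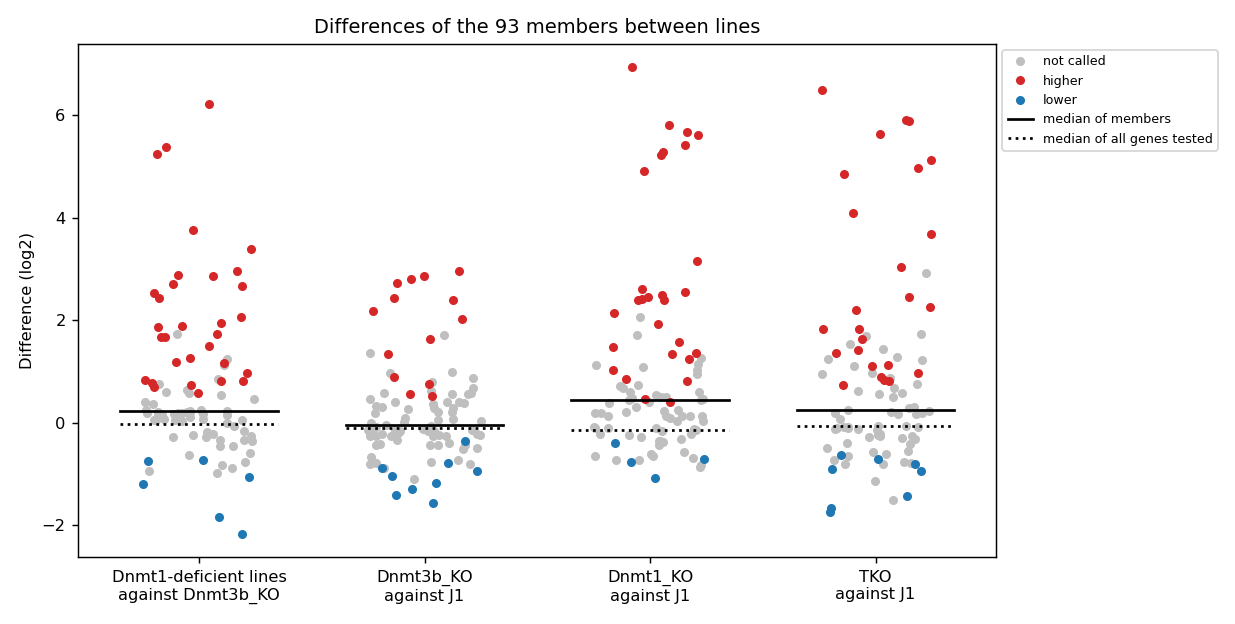
Log2 differences of the 93 members in the 4 comparisons tested, 1 point per member, red where called higher, blue where called lower and grey where not called. Solid lines mark the members' median and dotted lines the median of all 23624 names tested. The members' median is 0.23 in the Dnmt1-deficient lines against Dnmt3b_KO, with points up to 6.23, and -0.04 in Dnmt3b_KO against J1.

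The knockout lines were also each set against J1. These comparisons share the J1 arrays with the choice of members, so their values stand side by side and are not independent of it. In Dnmt3b_KO, 14 members (15.1%) were called higher than in J1, where 10.9% of all names were, and 9 (9.68%) were called lower, where 10.2% were. Both shares are near the background, and the median of the members was -0.04. In Dnmt1_KO, 28 members (30.1%) were called higher, against a background of 13.1%, and 4 (4.3%) lower, against 15.1%, with a median of 0.43. In TKO, 25 members (26.9%) were called higher, against 13.8%, and 8 (8.6%) lower, against 14.7%, with a median of 0.25. The medians of all names were -0.1, -0.15 and -0.07. As 47 members were well above background on no J1 array, a fall below J1 cannot be measured for them. The choice of members may therefore itself lower the shares called lower. Of the other 1047 PRDM14OE-raised names, 40.8% were called higher in Dnmt3b_KO, 48.6% in Dnmt1_KO and 55.9% in TKO. The rule holds PRDM14OE_DNMT3B close to J1 for the members and not for these names, so the gap to the members was not tested. All members called in these comparisons kept their direction within each slide that holds both groups. The calls were made on these same arrays, which largely fixes this. J1 was scanned in another pass than Dnmt1_KO and TKO on slide 1 and than Dnmt3b_KO on slide 2. The 4 members lower in Dnmt1_KO were 7 with the slide as a block, where 21.5% of all names were called lower. The count of 4 fell without J1 replicate 2 or either PRDM14OE array, as did the share of all names called lower. Without J1 replicate 2 the 8 lower in TKO also fell, as did the share of all names.

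In total 20 members (21.5%) were called higher in both Dnmt1_KO and TKO, where 8.24% of all names were, and 10 (10.8%) in all 3 knockout lines, where 4.29% were. None of the 4 comparisons called 45 members (48.4%), close to the 53.1% of all names. Cd99 was 6.94 ± 0.2 above J1 in Dnmt1_KO, 6.49 ± 0.2 in TKO and 2.96 ± 0.16 in Dnmt3b_KO (SE, log2, limma adjusted p = 0.000165, 0.000202 and 0.000759), against J1 levels of -2.42 and -2.68. Fthl17f was 5.82 above J1 in Dnmt1_KO, 5.12 in TKO and 2.8 in Dnmt3b_KO. Mbl2 was at least 10.8-fold, 7.31-fold and 1.36-fold above J1 in Dnmt1_KO, TKO and Dnmt3b_KO. All 3 genes rose in the 3 knockout lines, and all 3 were also called higher in the Dnmt1-deficient lines than in Dnmt3b_KO. Opn3 and the non-coding RNA 2810429I04Rik (chromosome 13) were at least 2.54-fold and 2.17-fold above J1 in Dnmt3b_KO. Fkbp6, Ctag2l2, Tktl2 and Zfp264 were not called in Dnmt3b_KO against J1, but only Fkbp6, with a log2 difference of 0.19, was above background in this comparison, so for the other 3 genes this says nothing of a change.

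Some further members were chosen for naming after their values were seen, except Nexn, Esam and Tmc5, which the rule names. Nexn, an actin-binding protein of heart muscle, was a bright member with 1.04 and 0.99 in PRDM14OE, -1.15 and -1.20 in PRDM14OE_DNMT3B, -1.27 and -1.43 in Dnmt3b_KO, -1.49 in Dnmt1_KO and -0.79 in TKO, against -1.10 and -1.05 in J1. It fell by 0.41 in Dnmt1_KO and was called in no other comparison. Esam, an adhesion molecule of endothelial cells, had 1.03 and 0.95 in PRDM14OE, -0.83 and -0.72 in PRDM14OE_DNMT3B, -1.66 and -1.71 in Dnmt3b_KO, -1.56 in Dnmt1_KO and -1.43 in TKO, against -0.86 and -0.72 in J1. It fell in all 3 knockout lines against J1, by 0.89 in Dnmt3b_KO, by 0.77 in Dnmt1_KO and by 0.64 in TKO. Myl7, the atrial regulatory light chain of myosin, was 0.81 higher in the Dnmt1-deficient lines than in Dnmt3b_KO (limma adjusted p = 0.00762) and fell by 0.8 in Dnmt3b_KO against J1. Tmc5, of a family of transmembrane channel-like proteins, was at least 1.86-fold higher and fell by 1.18 in Dnmt3b_KO against J1, where both groups were below background. Without the TKO array the first call of Tmc5 was lost (limma adjusted p = 0.0744). Nfe2, an erythroid transcription factor, was at least 2.92-fold above J1 in Dnmt1_KO and at least 2.56-fold in TKO, with levels of -2.66 and -2.85 close to those of PRDM14OE at -2.62 and -3.29. H60a, a ligand of the NKG2D receptor of natural killer cells, rose by 2.39 in Dnmt1_KO (limma adjusted p = 0.000487) and was 0.2 above J1 in TKO (not called). Pgbd5, derived from a piggyBac transposase, rose by 1.02 in Dnmt1_KO and by 1.11 in TKO. Among the 45 members called in no comparison, Lclat1, a cardiolipin acyltransferase with levels near 0 in PRDM14OE, stayed within 0.22 log2 units of J1 in each knockout line.

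Dnmt1_KO and TKO, which differ in Dnmt3a and Dnmt3b, were compared by values, with 1 array each. TKO minus Dnmt1_KO had a median of -0.06 over the members, with 7 members over 1 and 15 under -1. Both counts include members below background on both arrays, such as Fam167a among the 7 and Lgr5 among the 15. The share over all names was not taken, so the counts are no result about the members. Rhox6, at 1.00 in TKO and 3.03 in Dnmt1_KO, and Rhox9, at 1.39 in TKO and 3.51 in Dnmt1_KO, were among the 15.

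The Rhox genes are X-linked homeobox genes expressed in gonads and placenta, and 3 of the 17 names of a Rhox list on the array were members. Rhox6 (chromosome X, 35182945 to 35183004) and Rhox9 (35254147 to 35254206), whose probes lie 71202 bp apart, were the brightest of them. Rhox9 had 5.25 and 5.07 in PRDM14OE, 2.01 and 1.92 in PRDM14OE_DNMT3B, 1.82 and 1.71 in Dnmt3b_KO, 3.51 in Dnmt1_KO and 1.39 in TKO, against 3.06 and 3.06 in J1. Rhox6 had 4.36 and 4.07 in PRDM14OE, 0.61 and 0.31 in PRDM14OE_DNMT3B, 0.93 and 0.77 in Dnmt3b_KO, 3.03 in Dnmt1_KO and 1.00 in TKO, against 2.53 and 2.34 in J1. Both genes were well above background on all arrays. In PRDM14OE_DNMT3B they lay below J1, at -1.07 (Rhox9) and -1.97 (Rhox6) log2 units from it in the value table. Against J1, Rhox9 fell by 1.29 ± 0.1 in Dnmt3b_KO and by 1.67 ± 0.12 in TKO, and rose by 0.45 ± 0.12 in Dnmt1_KO (SE, log2, limma adjusted p = 0.00133, 0.000712 and 0.038). Rhox6 fell by 1.58 in Dnmt3b_KO and by 1.43 in TKO. Both were called higher in the Dnmt1-deficient lines than in Dnmt3b_KO (Rhox9 0.69, Rhox6 1.17), but neither call held without the Dnmt1_KO array, where the difference was -0.37 for Rhox9 and 0.15 for Rhox6. Without the TKO array Rhox9 differed by 1.75. Rhox3a (chromosome X), near background in most groups, was not called in any of the 4 comparisons. Of the 15 names of the list that were tested, 10 were called higher and 0 lower in the Dnmt1-deficient lines against Dnmt3b_KO, and 8 were called lower in Dnmt3b_KO against J1.

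Few members belong to the other lists. Fkbp6 was the 1 member among 21 piRNA pathway names on the array, of which 16 were tested and 7 were called higher and 1 lower in the Dnmt1-deficient lines against Dnmt3b_KO (list median 0.58, all names -0.02). None of 38 meiosis names, 68 other germline names and 34 names of 2-cell stage genes was a member. In the same comparison 21 of 32 tested meiosis names, 34 of 56 other germline names and 21 of 30 2-cell names were called higher. Called lower were 1, 3 and 2 of them. Of all names tested, 10.9% were called higher and 11.5% lower. Among 47 imprinted names, Zfp264 and Peg12, a paternally expressed intronless gene (chromosome 7, 69607011 to 69607070), were members. Peg12 had -0.37 and -0.39 in PRDM14OE, -1.75 and -1.86 in PRDM14OE_DNMT3B, -1.20 and -1.06 in Dnmt3b_KO, -1.07 in Dnmt1_KO and -1.70 in TKO, against -1.94 and -1.83 in J1. It rose by 0.76 in Dnmt3b_KO (limma adjusted p = 0.00489) and by 0.81 in Dnmt1_KO (limma adjusted p = 0.0061), while TKO was 0.18 above J1 (not called). Thbd, the endothelial thrombin receptor thrombomodulin, was the 1 member among 25 primitive endoderm names. It rose by 1.34 in Dnmt3b_KO and by 1.63 in TKO. The summed level of that list ran from 8.7 to 8.75 in PRDM14OE, against 8.33 to 8.45 in J1, and its part in the level of Thbd was not tested.

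By probe position on mm9, 10 of the 91 placed members (11%) lay on the X chromosome, against 4.07% of the names tested and 2.9% of the 1036 placed PRDM14OE-raised names that stayed raised with DNMT3B1. On chromosome 19 lay 7 members (7.69%, against 3.07% of names tested), on chromosome 7 lay 11 (12.1%, against 7.61%) and on chromosome 12 lay 0 (0.0%, against 3.82%). These shares are descriptions of a chosen set. Of the 10 X-linked members, Smim9, Efhc2, Dmrtc1b, Rhox9, Ctag2l2, Gm8817, Rhox3a, Rhox6, Fthl17f and Fthl17d, 7 were called higher in the Dnmt1-deficient lines than in Dnmt3b_KO, the exceptions being Smim9, Gm8817 and Rhox3a. Of all 954 X-linked names tested, 160 (16.8%) were called higher there. Among the 7, the calls of Rhox6 and Rhox9 did not hold without the Dnmt1_KO array. Fthl17d and Fthl17f belong to the same multicopy family, so their calls may share signal. Within 100 kb of each other lay 4 pairs of members. They were the 2 Fkbp6 probes, Rhox6 and Rhox9, ENSMUST00000022427 and ENSMUST00000059648 on chromosome 14, which the files both describe as 4933413J09Rik, and ENSMUST00000025333 (histocompatibility 2, blastocyst) and Gm8909 on chromosome 17. Gm8909, a predicted gene, rose by 0.85 in Dnmt1_KO and by 1.36 in TKO against J1 (limma adjusted p = 0.0108 and 0.00219), whereas ENSMUST00000025333 was not called in any comparison.

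A RefSeq promoter window was at hand for 49 members and for 12264 genes tested. The members' windows held a median of 7 CpG in 300 bases, against 10 in 583 genes that stayed raised with DNMT3B1, 7 in 1051 tested genes below background in J1 and 19 in all genes tested. At least 15 CpG were found in 20.4% of the members, 41.3% of the genes that stayed raised, 28.4% of those below background in J1 and 62.5% of all. Fewer than 5 CpG were found in 38.8%, 29.7%, 39.4% and 13.6%. CpG-poor promoters are thus as common among genes dim in J1 as among the members. The windows of the 20 members called higher in the Dnmt1-deficient lines against Dnmt3b_KO had a median of 6.5 CpG and those of the 26 not called a median of 7, so the printed Fkbp6 window with 21 CpG is one of the CpG-rich exceptions. The E-box CACGTG, which reads the same on both strands, was found in 18.4% of the members' windows, 8.06% of genes that stayed raised, 6.76% of those below background in J1 and 9.82% of all. It occurs 2 times each in the printed windows of Fkbp6 and Rab3il1 and 1 time in that of Ctag2l2. TCCCGC, an E2F-type motif searched on both strands, was found in 26.5% of the members, 24.7% of genes that stayed raised, 18.2% of those below background in J1 and 32.9% of all, and GGTCTCTAA, known as a PRDM14 binding motif and searched on both strands, in 0 of 49 members and 0.228% of all. Matches of different motifs could overlap. A match describes letters in the window and is neither a site nor a cause.

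**Figure D4:**
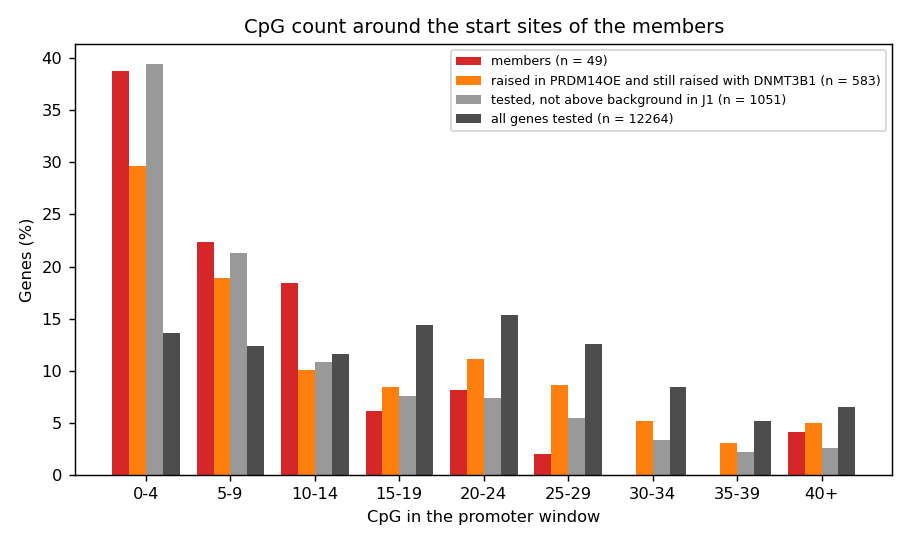
Share of genes (%) by the number of CpG in the promoter window, for the 49 members, 583 genes raised in PRDM14OE that stayed raised with DNMT3B1, 1051 tested genes below background in J1 and all 12264 genes tested. Members lie mostly in the lowest classes, as do genes below background in J1, while most genes tested have 15 CpG or more.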

How the data were processed

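RNA of mouse ES cells was labelled with Cy3 and hybridised to 10 one-colour Agilent arrays. Per the file headers, the deposited scanner intensities were made with Feature Extraction 10.7.3.1 on probes of 60 bases placed on mm9. The deposited value table holds log2 values that the authors scaled between arrays, per the submitters' processing notes with limma, for which no version is known here. Each of its columns has a median of 4.243 and correlates with log2 intensity at r of 0.9993 to 0.9998, and it differs from a quantile normalization by at most 0.299, so its exact scaling stays unknown, while it is not centred per gene and its direction is that of the intensity.

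The value table chose the members. For levels and tests, log2 processed signal minus the array's 75th percentile was used (75th percentiles of 243.1 to 337.3 intensity units), without control and outlier spots, with the probe of the membership rule for each name. The filter on dim probes asked for all arrays of some group to be well above background, and it left 23624 names, after 12 were dropped for missing values. All 10 arrays entered 1 fit in limma 3.58.1 (R 4.3.3) with no covariate and 4 residual degrees of freedom, and p-values were adjusted by Benjamini-Hochberg over all names. The number of arrays limits the precision. The members and the 20 gene lists were chosen with earlier results of these data known. Named genes are the 12 members with the largest PRDM14OE difference, the 10 most changed each way in the Dnmt1-deficient lines against Dnmt3b_KO, the 5 most changed each way in each knockout against J1, members in a list, those beside the thresholds and those within 100 kb of another. Gene names were updated through RefSeq for 61 members by accession, 3 by symbol and 2 by synonym, and 27 were not matched; for the synonyms the files' names are kept. Only the Vmn1r168 probe shares 30 or more bases with a probe of another name. Exons were not looked up, as an mm9 annotation was not used here.

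Slide 1 held replicate 1 of PRDM14OE_DNMT3B, Dnmt3b_KO and J1 with Dnmt1_KO and TKO, and slide 2 the second replicates of the first 3. Each slide had a second scan pass, for Dnmt1_KO and TKO on slide 1 and for J1 on slide 2. Alternatives were background correction, normalization, the value table, filters, mean over probes, replicate and slide blocks, other thresholds, and leaving out each array.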

Additional observations from a re-analysis of the deposited data

Results flagged for a closer look

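For 5 members the limma calls against J1 ran in opposite directions in 2 knockout lines, and the difference between the lines was not tested. Rhox9, a gonadal homeobox gene, was 0.45 log2 units above J1 in Dnmt1_KO and at -1.29 in Dnmt3b_KO and -1.67 in TKO. Mettl7b, a methyltransferase-like gene, had fitted differences from J1 of 1.48 in Dnmt1_KO and -0.91 in TKO, but J1 and TKO were below background. Its level in Dnmt1_KO was therefore at least 1.07-fold that of J1, and the difference in TKO is not a measured direction. Mpped2, a metallophosphoesterase, was 0.41 above J1 in Dnmt1_KO and at -0.71 in TKO. Eva1a (Fam176a in the files), a membrane protein linked to autophagy, was 0.96 above J1 in TKO and at -0.95 in Dnmt3b_KO. The transcript AK145700 was 0.88 above J1 in TKO, and its fitted difference of -1.05 in Dnmt3b_KO, where it was below background, is a level at least 1.97-fold lower than in J1. Dnmt1_KO and TKO have 1 array each, so no group is large enough for a check of single outlying arrays.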

How the results depend on the processing

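The number of members was 77 on 75th percentile or quantile-normalized intensities, 15 with normexp background correction (11 of the 93), 267 with a PRDM14OE threshold of 1.0, 65 with a PRDM14OE_DNMT3B threshold of 0.25, 133 without the background flag, and 84 to 154 without 1 array, the highest without PRDM14OE replicate 1. In the Dnmt1-deficient lines against Dnmt3b_KO, members called higher were 15 and lower 2 when only the 29 members above background on all 10 arrays were tested. Members called lower were also 2 with normexp, and without 1 array the counts ran from 24 to 32 higher and from 3 to 8 lower. In the same setting of 29 members, 9 were called higher in Dnmt3b_KO, 15 in Dnmt1_KO and 13 in TKO against J1, against 13.8%, 12.2% and 13.9% of the 18201 names in that setting. With fewer members tested, the counts are smaller by construction. As shares of the 29 members, each was above the share of all names. Members called lower in Dnmt1_KO were 2 with normexp, 2 with no filter and 7 with the slide block. The shares of all names were 13.5%, 4.7% and 21.5%. Those lower in TKO were 5 with normexp, against 12.4% of all names. When 1 array was left out, the shares of all names called were about equal to or below those of the main fit. Without 1 array, counts against J1 ran from 10 to 14 higher and 6 to 10 lower in Dnmt3b_KO, 25 to 28 and 2 to 4 in Dnmt1_KO, and 18 to 25 and 5 to 10 in TKO. In the Dnmt1-deficient lines against Dnmt3b_KO, 3 named differences turned: ENSMUST00000022427 to 0.01 with normexp, and Rhox9 to -0.37 and Mettl7b to -0.39 without Dnmt1_KO, where leaving out 1 array gave -0.37 to 1.75 and -0.39 to 2.00. Among the named differences, normexp left 129 on the same side of the threshold, ended 23 calls and added 3. The cause was not tested. Same-numbered arrays correlated at 0.0996 to 0.2319 in their deviations from group means, with only 2 numbers, so the numbers do not establish pairs. With the replicate block 31 members were called higher and 8 lower in the Dnmt1-deficient lines against Dnmt3b_KO, against 14% and 17.8% of all names. Against J1 they were 17 and 11 in Dnmt3b_KO (all names 14% and 16.2%). In Dnmt1_KO they were 30 and 5 (15.5% and 23.6%), and in TKO 26 and 9 (16.8% and 20.9%). Signal over background limits all dim members.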
